A study of Mus musculus with 8 samples.

Results

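The 10 genes described here belong to the cell cycle engine and were followed in B cell progenitors of control (Ctrl) and *Upf1* conditional knockout (cKO) mice. They were 7 cyclins (*Ccnd2*, *Ccnd3*, *Ccne1*, *Ccne2*, *Ccna2*, *Ccnb1* and *Ccnb2*) and 3 cyclin-dependent kinases (*Cdk1*, *Cdk2* and *Cdk6*). The genes were chosen by name from the cyclins and kinases of each cell cycle phase, with earlier results of these data known. *Cdk4* was not among them. All 10 of 10 were among the 27179 genes of the count table and among the 17700 with enough reads to test. The question was which phase of the cell cycle differs in *Upf1*-cKO small pre-B cells.

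UPF1 is an RNA helicase of nonsense-mediated mRNA decay. Bone marrow B cells of age-matched mice of both sexes were sorted into early large pre-B (early LPre-B) cells, which are large, CD43+ and CD2-, and small pre-B (sPre-B) cells, which are small, CD43lo, CD25+ and CD2+, both without surface IgM (sIgM-). Ctrl mice were *Upf1* Flox/Flox, *Mb1* +/+ and cKO mice were *Upf1* Flox/Flox, *Mb1* Cre/+. All animals, Ctrl included, also carried *Igh* B1-8hi/+, a heavy chain allele that is already rearranged. Cre was expressed from the *Mb1* (*Cd79a*) locus, a gene of the B lineage, and Ctrl mice carried no Cre, so the Cre allele and the loss of *Upf1* cannot be told apart in these groups. Each of the 4 groups (2 genotypes by 2 populations) had 2 libraries of rRNA-depleted RNA, with 68516857 to 160426338 counts per library. The study describes its replicates as biological, and the 2 libraries of each Ctrl group differed in sex by their reads, so they came from separate mice. For the cKO libraries the labels do not name the mouse, and whether a mouse gave both populations is not given, so the *P* values measure the spread between these libraries.

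A cyclin switches on its kinase partner for one part of the cycle, and most cyclin genes are transcribed only in that part. D-type cyclins with CDK4 or CDK6 answer growth signals in G1, E-type cyclins with CDK2 start DNA replication, cyclin A2 with CDK2 and CDK1 runs S phase and G2, and B-type cyclins with CDK1 drive mitosis. Large pre-B cells divide under IL-7 and pre-B cell receptor signals. Small pre-B cells leave the cycle and rearrange their light chain genes.

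Promoters of 5 members are shown first, 3 that were not called in the sPre-B comparison (*Cdk1*, *Ccnb2* and *Ccnb1*), 1 that was lower in cKO (*Cdk2*) and 1 that was higher (*Ccne1*). Each line is the 120 bases before the RefSeq transcription start, 5′ to 3′ on the strand of the gene, build GRCm38.p6 (mm10). Capitals mark 3 motifs searched on both strands: the cell cycle homology region (TTTGAA or TTCGAA), the CCAAT box, and an E2F core (TTCCCGC or else TTCGCGC or else TTGCCGC or else TTGGCGC). A match on the other strand appears as its complement, such as ATTGG for the CCAAT box.
Cdk1, chr10:69352913-69353032, minus strand: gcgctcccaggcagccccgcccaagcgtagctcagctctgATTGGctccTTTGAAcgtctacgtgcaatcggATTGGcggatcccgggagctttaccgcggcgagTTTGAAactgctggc
Ccnb2, chr9:70421555-70421674, minus strand: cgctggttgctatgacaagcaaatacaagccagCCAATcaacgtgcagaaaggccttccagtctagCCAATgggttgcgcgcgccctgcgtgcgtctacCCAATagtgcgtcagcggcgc
Ccnb1, chr13:100786487-100786606, minus strand: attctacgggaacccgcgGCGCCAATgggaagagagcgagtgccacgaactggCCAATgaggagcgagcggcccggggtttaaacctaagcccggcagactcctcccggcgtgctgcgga
Cdk2, chr10:128705052-128705171, minus strand: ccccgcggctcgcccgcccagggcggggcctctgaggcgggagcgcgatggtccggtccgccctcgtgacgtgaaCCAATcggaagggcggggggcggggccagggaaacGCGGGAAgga
Ccne1, chr7:38107491-38107610, minus strand: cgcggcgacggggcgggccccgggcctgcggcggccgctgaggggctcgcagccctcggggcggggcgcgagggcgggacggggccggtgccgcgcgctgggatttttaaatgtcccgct

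In the 250 bases before the start, the *Cdk1* promoter held 2 cell cycle homology words (-71 to -66 and -15 to -10 from the start), 3 CCAAT boxes and 2 E2F cores. *Ccnb2* held 3 CCAAT boxes, at -87, -54 and -21, and 1 cell cycle homology word at -167, outside the stretch shown. *Ccnb1* held 2 CCAAT boxes, and its 1 E2F core (-102 to -96) overlapped one of them (-99 to -95). The *Cdk2* promoter had 1 CCAAT box and 2 E2F cores, one of them at -10 to -4. No word matched in *Ccne1* or *Cdk6*, and of the 2 starts of *Ccnd3* the second had 1 CCAAT box. Over 32851 mouse promoters of this length, 17.1% held a cell cycle homology word, 33.8% a CCAAT box and 7.89% an E2F core. So several CCAAT boxes are shared by the members that act in mitosis. A match is only a match of letters. *Ccnd2*, *Ccne2* and *Ccna2* had no entry in the set of promoter sequences used here.

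Levels below are CPM, the reads of a gene brought to a common library size with edgeR's TMM factors. A difference is a log2 fold change (Log2FC) with its standard error (SE) from edgeR's quasi-likelihood test, 1 fit over all 8 libraries, and a gene is called higher or lower at a Benjamini-Hochberg adjusted *P* under 0.05 over the 17700 genes. In bulk RNA, fewer cycling cells and less transcript per cell cannot be told apart. In the cKO libraries of either population the count for *Upf1* as a whole (244.5 to 293.1 CPM) was not under that of Ctrl (185.6 to 236.9 CPM). The floxed exons are only part of the gene, so this count does not check the genotypes, which rest on the labels. Both Ctrl replicate 2 libraries carried reads of Y-linked genes (19733 and 28205) and few of *Xist*, and the other 6 the reverse, so a male sample stood only in the Ctrl groups.

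In sPre-B cells, 1 of the 3 G1 members (*Ccnd2*) and all 3 of the G1/S step were called between cKO and Ctrl. *Ccnd2*, *Ccne1* and *Ccne2* were higher, and *Cdk2* was lower. The 4 members of S, G2 and mitosis were not called with all libraries. *Ccna2*, *Ccnb2* and *Cdk1* were called higher without Ctrl sPre-B replicate 1, which left the male library alone in that group, but not without replicate 2. No test compared the phases with each other. Thus 3 of 10 members were higher and 1 lower, where 19.8% of all tested genes were called higher and 14.9% lower. These counts are near that background, and it is the sizes and which members moved that are described here.

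*Ccnd2* (Entrez 12444, chromosome 6, 127125162 to 127152188, minus strand) encodes cyclin D2, a D-type cyclin induced by growth signals in B cells. It stood at 18.1 and 12.1 CPM in the Ctrl sPre-B libraries and at 226.7 and 158.4 CPM in the cKO ones. Those groups were far apart, 12.7-fold (Log2FC 3.67, SE 0.25, adjusted *P* = 4.07e-05). The early LPre-B libraries held 168.3 and 145.4 CPM of *Ccnd2* in Ctrl, with 332.7 and 257.1 CPM in cKO. Of the cKO sPre-B values, one lay inside the range of the Ctrl early LPre-B libraries and one above it, set side by side here with no test. The Log2FC in sPre-B cells stayed between 3.37 and 3.95 and was called in all 17 alternative fits, leave-outs included.

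*Ccnd3* (chromosome 17, 47505051 to 47599689, plus strand) encodes cyclin D3, the D-type cyclin that pre-B cells need for expansion. Ctrl sPre-B cells had 380.1 and 363.3 CPM and cKO sPre-B cells 464.2 and 384.5 CPM. The libraries did not overlap, but the difference was within the spread of the fit (Log2FC 0.19, 95% interval -0.24 to 0.62, adjusted *P* = 0.466). *Ccnd3* shares 15.9% of its exon bases with *Bysl* on the other strand, and reads were counted without strand. *Bysl* was not called either (Log2FC 0.18, adjusted *P* = 0.356).

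*Cdk6* (chromosome 5, 3341004 to 3531008, plus strand) encodes a kinase partner of the D-type cyclins. Its sPre-B values were 17.7 and 18.5 CPM in Ctrl and 14.3 and 16.1 CPM in cKO. Both cKO libraries were below both Ctrl libraries, and the difference was not called (Log2FC -0.25, 95% interval -0.48 to -0.01, adjusted *P* = 0.0961). Hence in cKO sPre-B cells the 2 D-type cyclins and their kinase each gave a different value, 12.7-fold higher for *Ccnd2* and not called for the others.

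**Figure D1:**
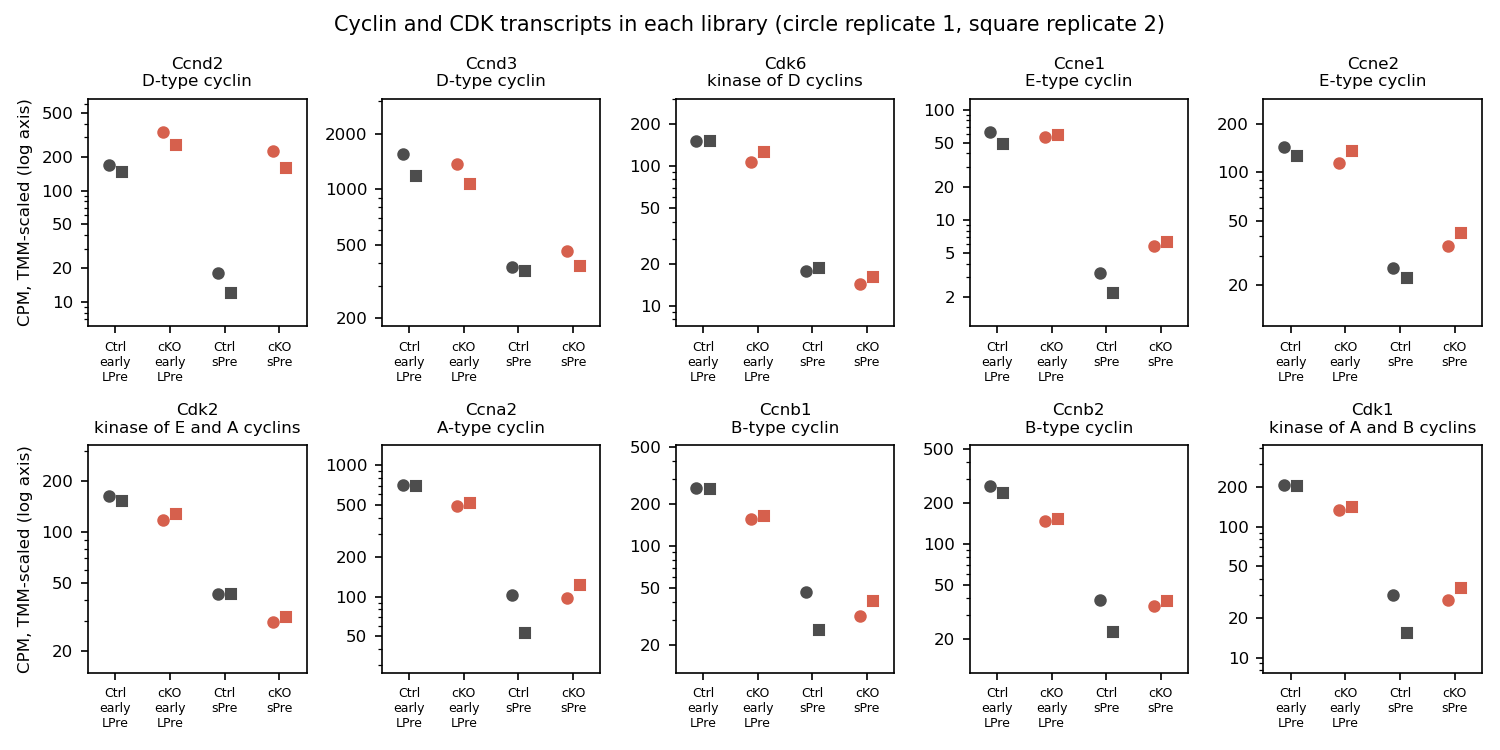
TMM-scaled CPM (log axis, 1 panel per gene) of the 10 cyclins and CDKs in each of the 8 libraries, Ctrl in grey and cKO in red, circles for replicate 1 and squares for replicate 2. *Ccnd2* is the panel in which cKO sPre-B libraries (226.7 and 158.4 CPM) lie with the early LPre-B libraries, and in *Ccna2*, *Ccnb1*, *Ccnb2* and *Cdk1* the 2 Ctrl sPre-B libraries lie apart.

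At the G1/S step, *Ccne1* (chromosome 7, 38097984 to 38107490, minus strand), which encodes cyclin E1, had 3.3 and 2.17 CPM in Ctrl sPre-B cells. The cKO sPre-B libraries had 5.85 and 6.23 CPM. They lay above both Ctrl libraries, 2.2-fold (Log2FC 1.14, SE 0.20, adjusted *P* = 0.0028). These are the lowest levels of any member, and rest on 153 to 779 reads per library. In early LPre-B cells the gene stood at 48.4 to 62.4 CPM, so the rise in cKO sPre-B cells was small beside the difference between populations.

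*Ccne2* (chromosome 4, 11190433 to 11204779, plus strand), for cyclin E2, had 25.5 and 22.1 CPM in Ctrl sPre-B cells and 34.7 and 41.9 CPM in cKO sPre-B cells. It was 1.61-fold higher in cKO, with no overlap (Log2FC 0.69, SE 0.13, adjusted *P* = 0.00504). *Ints8* on the other strand shares 10.5% of the *Ccne2* exon bases and was itself higher in cKO sPre-B cells (Log2FC 0.89, adjusted *P* = 0.000797), and its part in the *Ccne2* value was not tested. Without both Ctrl replicate 2 libraries the adjusted *P* of *Ccne2* was 0.0501.

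The kinase of the E-type cyclins moved the other way. *Cdk2* (chromosome 10, 128697938 to 128705051, minus strand) was at 43.2 and 43 CPM in Ctrl sPre-B cells and at 29.6 and 31.5 CPM in cKO sPre-B cells. Replicates lay close together and the groups apart, 1.41-fold lower in cKO (Log2FC -0.50, SE 0.08, adjusted *P* = 0.00243). All 17 alternative fits called *Cdk2* lower, from -0.55 to -0.45.

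For S phase and G2, *Ccna2* (chromosome 3, 36564865 to 36573038, minus strand), which encodes cyclin A2, had 103 and 52.7 CPM in Ctrl sPre-B cells and 97.4 and 123.6 CPM in cKO sPre-B cells. The groups overlapped (Log2FC 0.50, 95% interval -0.10 to 1.10, adjusted *P* = 0.173). *Exosc9* shares 12.7% of its exon bases on the other strand and was not called (Log2FC 0.45, adjusted *P* = 0.0505).

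For mitosis, *Ccnb1* (chromosome 13, 100778739 to 100786486, minus strand), the gene for cyclin B1, had 47.2 and 25.3 CPM in Ctrl and 31.7 and 40.7 CPM in cKO sPre-B cells, with a Log2FC of 0.00 (95% interval -0.56 to 0.55, adjusted *P* = 0.994). *Ccnb2* (chromosome 9, 70407689 to 70421554, minus strand), for cyclin B2, had 39.1 and 22.7 CPM in Ctrl and 34.9 and 38.4 CPM in cKO (Log2FC 0.25, 95% interval -0.23 to 0.72, adjusted *P* = 0.398). *Cdk1* (chromosome 10, 69335146 to 69352912, minus strand), the mitotic kinase, had 30.2 and 15.3 CPM in Ctrl and 27.4 and 33.9 CPM in cKO (Log2FC 0.43, 95% interval -0.16 to 1.01, adjusted *P* = 0.23). In each of these genes at least 1 cKO library lay between the Ctrl libraries. Pseudogene copies of B-type cyclins can share reads with them. The one counted, *Ccnb1-ps*, had 0.738 to 7.64 CPM.

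This result turns on 1 library. Ctrl sPre-B replicate 1 was above replicate 2 by 1.95-fold for *Ccna2*, 1.87-fold for *Ccnb1*, 1.72-fold for *Ccnb2* and 1.97-fold for *Cdk1*. For *Cdk2*, *Cdk6*, *Ccnd3* and *Ccne2* the same 2 libraries were within 1.16-fold, and for *Ccnd2* and *Ccne1* they were 1.49- and 1.52-fold apart. Without Ctrl sPre-B replicate 1, *Ccna2* (Log2FC 1.03), *Ccnb2* (0.66) and *Cdk1* (0.97) were called higher in cKO. *Ccnb1* was at 0.48 there and was not called. The Ctrl sPre-B group was then the male library alone, set against female cKO libraries, so sex and genotype cannot be told apart in that fit. Without Ctrl sPre-B replicate 2, which is the male library, the values were 0.07 for *Ccna2*, -0.42 for *Ccnb1*, -0.13 for *Ccnb2* and -0.01 for *Cdk1*, and none of the 4 was called. *Ccnd2*, *Ccne1*, *Ccne2* and *Cdk2* were called without either library.

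**Figure D2:**
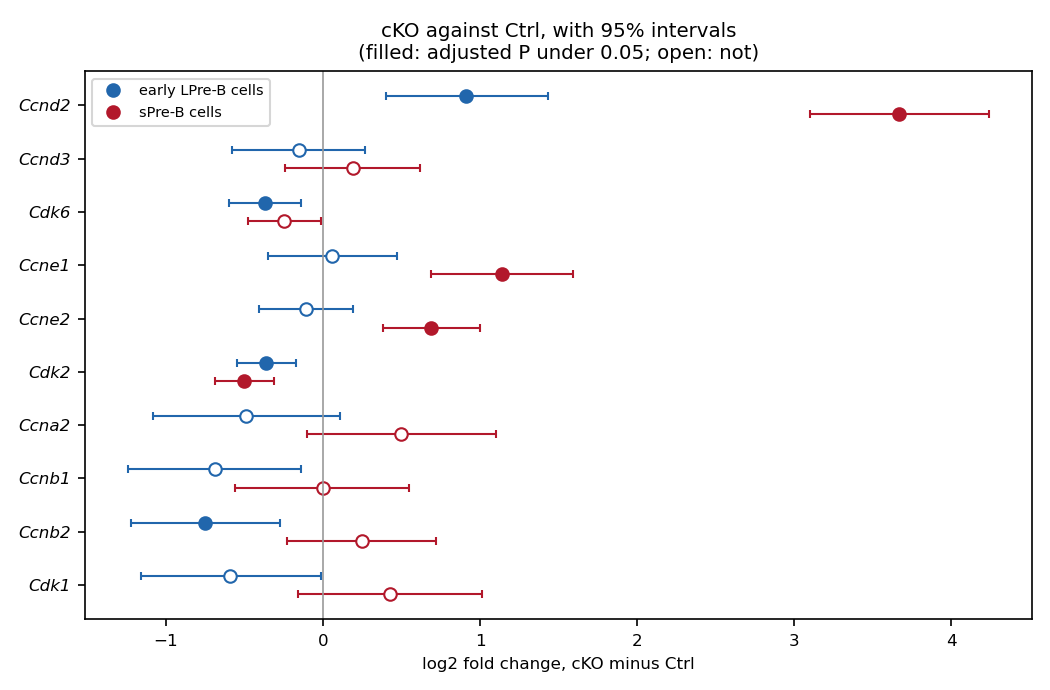
Log2FC of cKO against Ctrl for each member in early LPre-B cells (blue) and sPre-B cells (red), as points with 95% intervals from the edgeR fit, filled where the adjusted *P* was under 0.05. *Ccnd2* reaches 3.67 in sPre-B cells and 0.91 in early LPre-B cells, and for *Ccna2*, *Ccnb1*, *Ccnb2* and *Cdk1* the early LPre-B points lie at or below -0.49.

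In early LPre-B cells, the members split in another way: *Ccnd2* was again higher in cKO, and the genes called lower were *Cdk6*, *Cdk2* and *Ccnb2*. This was 1 of 10 higher and 3 of 10 lower, beside 14.5% and 16.9% of all tested genes. *Ccnd2* rose 1.88-fold from the values given above (Log2FC 0.91, SE 0.23, adjusted *P* = 0.0161). *Cdk6* had 150.6 and 150.3 CPM in Ctrl and 107.5 and 125.7 CPM in cKO, 1.29-fold lower (Log2FC -0.37, SE 0.10, adjusted *P* = 0.0246). *Cdk2* had 162.3 and 153.5 CPM in Ctrl and 118.4 and 128 CPM in cKO, 1.28-fold lower (Log2FC -0.36, SE 0.08, adjusted *P* = 0.0119).

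*Ccnb2* had 266.1 and 239.1 CPM in the Ctrl early LPre-B libraries and 147.3 and 153.8 CPM in cKO ones, 1.68-fold lower (Log2FC -0.75, SE 0.21, adjusted *P* = 0.0255). The other members of G2 and mitosis had the same order of libraries, every cKO library below every Ctrl library, without being called. *Ccnb1* had 258.3 and 255.6 CPM in Ctrl and 156 and 162.1 CPM in cKO (Log2FC -0.69, SE 0.24, adjusted *P* = 0.0594). *Cdk1* had 209.8 and 204.4 CPM in Ctrl and 134.1 and 141.8 CPM in cKO (Log2FC -0.59, SE 0.25, adjusted *P* = 0.111). *Ccna2* had 709.6 and 691.8 CPM in Ctrl and 486.5 and 513.1 CPM in cKO (Log2FC -0.49, SE 0.26, adjusted *P* = 0.193). Their replicates here were within 1.11-fold of each other, and the SE is set by the spread pooled over all 8 libraries, the apart-lying Ctrl sPre-B pair included. In the fit of the 4 early LPre-B libraries alone, *Ccna2*, *Ccnb1* and *Cdk1* were called lower (Log2FC -0.42, -0.63 and -0.52, adjusted *P* = 0.0265, 0.00292 and 0.00606). *Cdk6* and *Cdk2* were not called there (Log2FC -0.30 and -0.29, adjusted *P* = 0.071 and 0.0563).

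The E-type cyclins and *Ccnd3* overlapped between genotypes in early LPre-B cells. *Ccne1* had 62.4 and 48.4 CPM in Ctrl and 56.3 and 59.2 CPM in cKO (Log2FC 0.06, 95% interval -0.35 to 0.47). *Ccne2* had 142.9 and 127.1 CPM in Ctrl and 113.7 and 136.4 CPM in cKO (Log2FC -0.11, 95% interval -0.41 to 0.19). *Ccnd3* had 1546.3 and 1177.9 CPM in Ctrl and 1380.6 and 1068.2 CPM in cKO (Log2FC -0.15, 95% interval -0.58 to 0.27). The early LPre-B calls were less firm than those in sPre-B cells. Without Ctrl early LPre-B replicate 1, Ctrl early LPre-B replicate 2 or cKO early LPre-B replicate 1, *Ccnd2* was not called (Log2FC 1.06, 0.86 and 0.72, adjusted *P* = 0.0521, 0.0885 and 0.1), nor was *Cdk6* (Log2FC -0.33, -0.32 and -0.26, adjusted *P* = 0.0909, 0.102 and 0.171). *Cdk2* was lost without the first and the last of these (Log2FC -0.28 and -0.30, adjusted *P* = 0.065 and 0.0935), and *Ccnb2* when any 1 early LPre-B library was left out (Log2FC -0.78 to -0.63, adjusted *P* = 0.0791 to 0.137). The direction was kept in each of these fits.

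Between the populations of Ctrl mice, all 10 members were called lower in the sPre-B libraries, where 31.1% of all tested genes were called lower and 29.1% higher. *Ccne1* had the largest fall, 20.2-fold (Log2FC -4.33, SE 0.21), and *Ccnd3* and *Cdk2* the smallest, 3.66-fold each (Log2FC -1.87, SE 0.19 and 0.09). *Ccnd2* was 10.4-fold lower (Log2FC -3.37, SE 0.25), *Cdk6* 8.32-fold lower (Log2FC -3.06, SE 0.11) and *Ccne2* 5.68-fold lower (Log2FC -2.51, SE 0.14). The members of S, G2 and mitosis lay in a narrow band, from 7.08-fold for *Ccnb1* to 9.09-fold for *Cdk1*. Adjusted *P* values ran from 6.36e-07 for *Cdk6* to 5.26e-05 for *Ccnd3* (edgeR).

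In cKO mice all 10 members were again called lower in sPre-B cells, beside 31.1% of all tested genes lower and 31.6% higher. *Ccnd2* was only 1.53-fold lower (Log2FC -0.62, SE 0.23, adjusted *P* = 0.0398). This call was lost when any of 4 libraries was left out. The Log2FC was then -0.64 without either Ctrl early LPre-B replicate, -0.42 without cKO early LPre-B replicate 1 and -0.38 without cKO sPre-B replicate 2. *Cdk6* fell 7.66-fold and *Cdk2* 4.03-fold, beside 8.32- and 3.66-fold in Ctrl. The E-type cyclins fell 9.56-fold (*Ccne1*) and 3.26-fold (*Ccne2*), and *Ccna2*, *Ccnb1*, *Ccnb2* and *Cdk1* 4.11- to 4.52-fold. *Ccnd3* fell 2.89-fold.

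**Figure D3:**
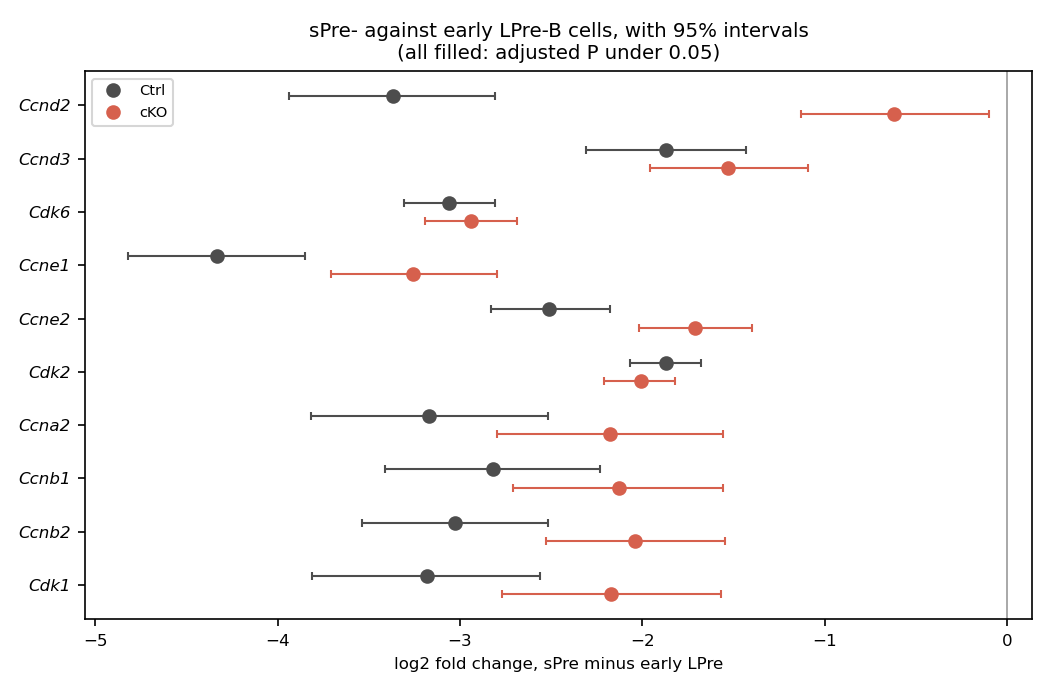
Log2FC of sPre- against early LPre-B cells for each member in Ctrl (grey) and cKO (red), as points with 95% intervals from the edgeR fit. All values are below 0, and the *Ccnd2* points, -3.37 in Ctrl and -0.62 in cKO, are the pair farthest apart.

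Whether the cKO difference itself changed between the 2 populations was tested by the interaction term. *Ccnd2* passed: the cKO difference was 2.76 larger on the log2 scale in sPre-B cells (SE 0.33, adjusted *P* = 0.00612). That was 1 of 10 members higher and 0 lower, beside 2.64% of tested genes higher and 1.6% lower. The only value below 0 was that of *Cdk2* (-0.14, adjusted *P* = 0.555), so that 0 members were lower at an unadjusted *P* under 0.05, and DESeq2 called 0 lower too. *Ccne2* (0.80, SE 0.19, adjusted *P* = 0.0524) and *Ccne1* (1.08, SE 0.27, adjusted *P* = 0.0597) missed the threshold, and so did *Ccnb2* (0.99, SE 0.29, adjusted *P* = 0.0985). *Cdk1* had 1.01 (SE 0.36, adjusted *P* = 0.155), *Ccna2* 0.99 (SE 0.37, adjusted *P* = 0.176) and *Ccnb1* 0.69 (SE 0.34, adjusted *P* = 0.298). With the replicate number as a block *Ccne1* had an adjusted *P* of 0.0446, and with a block within genotype, added after seeing the data, *Ccne1* (0.00517), *Ccne2* (0.0056), *Ccnb2* (0.0187) and *Cdk1* (0.0468) were called, although no pairing of the libraries was established. DESeq2 called 6 members higher in this term, the E-type cyclins, *Ccna2*, *Ccnb2* and *Cdk1* beside *Ccnd2*. Without both Ctrl replicate 2 libraries the *Ccnd2* term was 2.51 with an adjusted *P* of 0.0649.

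Per kilobase of exon, *Ccnd3* was the most abundant cyclin of the 7 in every library, at 47.4% to 75.3% of their sum. *Ccnd2* made up 2.04% and 2.09% in the early LPre-B libraries of Ctrl, 5% and 4.39% in those of cKO, 1.1% and 0.896% in Ctrl sPre-B cells and 11.1% and 8.5% in cKO sPre-B cells. The ratio of *Ccnd3* to *Ccnd2* was 58.9 and 84.1 in Ctrl sPre-B cells and 5.74 and 6.8 in cKO sPre-B cells. In early LPre-B cells it was 25.8 and 22.7 in Ctrl and 11.6 in both cKO libraries. The A- and B-type cyclins together took 39.6% and 44.7% of the sum in early LPre-B libraries of Ctrl, 30.7% and 36.6% in those of cKO, 30.5% and 20% in Ctrl sPre-B cells and 21.1% and 28.2% in cKO sPre-B cells. Even where *Ccnd2* was highest, *Ccnd3* thus remained the larger of the 2 D-type transcripts.

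The E-type pair changed its balance with the population. *Ccne2* over *Ccne1*, per kilobase, was 1.26 to 1.64 in the 4 early LPre-B libraries, 4.83 and 6.35 in Ctrl sPre-B cells and 3.71 and 4.21 in cKO sPre-B cells. *Cdk1* over *Cdk2* was 0.611 to 0.734 in the 4 early LPre-B libraries, with 0.51 and 0.594 in cKO sPre-B cells. In Ctrl sPre-B cells it was 0.385 in replicate 1 and 0.196 in replicate 2. The cKO ratio was above both Ctrl libraries, though *Cdk1* itself overlapped between the groups.

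**Figure D4:**
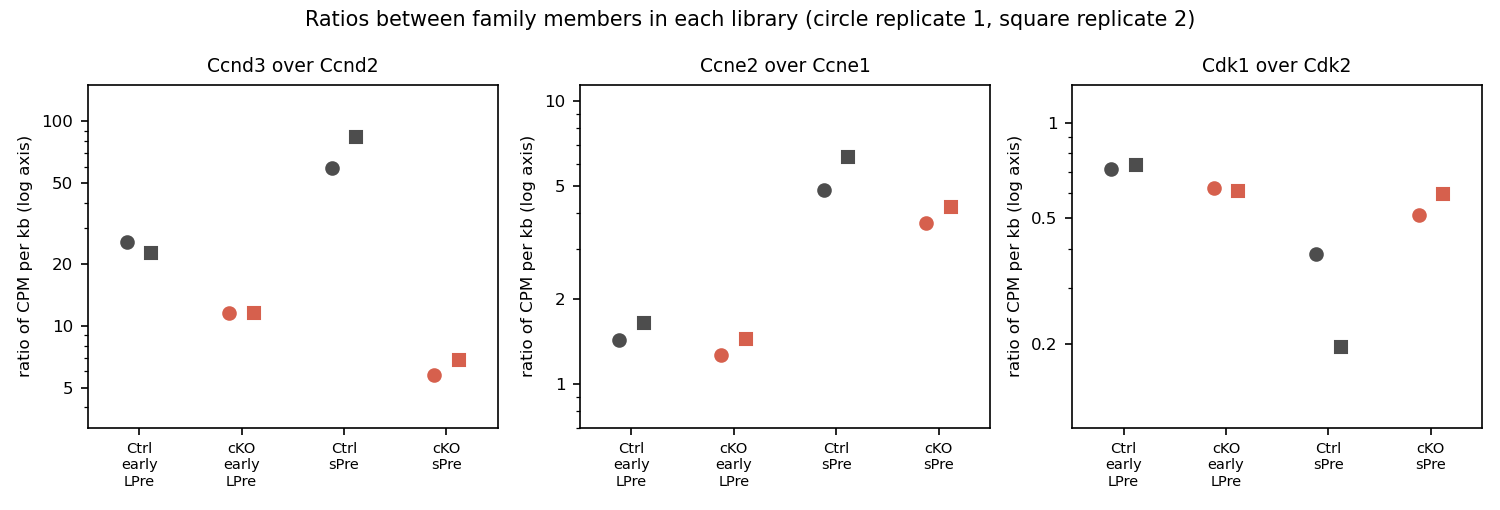
Ratios of CPM per kilobase of exon between pairs of members (log axes) in each of the 8 libraries, Ctrl in grey and cKO in red, circles for replicate 1 and squares for replicate 2. *Ccnd3* over *Ccnd2* is 58.9 and 84.1 in Ctrl sPre-B cells and 5.74 and 6.8 in cKO sPre-B cells.

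Over the 8 libraries, the members of S, G2 and mitosis followed each other closely. Pearson's r of log2 CPM was 0.9995 between *Cdk1* and *Ccna2* and 0.9963 between *Ccnb1* and *Ccnb2*. For *Ccnd2* the member most like it was *Ccne1*, at 0.7516. As a description with no test, since 2 populations of 2 genotypes set most of this variation, 120 tested genes had r above 0.95 with *Ccnd2* and 1308 to 1628 with each other member. The genes nearest to each member outside the group were *Cdca8* and *Tpx2* for *Cdk1*, *Gtse1* and *Top2a* for *Ccna2*, *4930579G24Rik* and *Kpna2* for *Ccnb1*, *Mxd3* and *Fam83d* for *Ccnb2*, *Rpa2* and *Exo1* for *Ccne1*, *Cdc23* and *Hells* for *Ccne2*, *Prps1* and *Arpp21* for *Cdk2*, and *E2f3* and *Mad1l1* for *Cdk6*, all with r of at least 0.9975. *Bysl* (0.9991), whose exons overlap those of *Ccnd3*, and *Gstp2* (0.9977) were nearest to *Ccnd3*, and *Gpr25* (0.9901) was, after a gene without a name in RefSeq (0.9910), nearest to *Ccnd2*.

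The antisense gene *9330179D12Rik*, which lies across the *Ccnd2* gene without sharing exon bases, had 0.26 and 0.397 CPM in Ctrl sPre-B cells and 3.65 and 2.85 CPM in cKO sPre-B cells. It was called higher in cKO sPre-B cells (Log2FC 3.31, SE 0.32, adjusted *P* = 0.000179) and in cKO early LPre-B cells (Log2FC 1.41, SE 0.29, adjusted *P* = 0.00739). Counting did not use strand, so its reads and those of unspliced *Ccnd2* RNA cannot be told apart. Another antisense gene, *Gm43126*, shares 5.88% of the *Ccnd2* exon bases and was not among the genes counted. Reads of it in those bases cannot be told from reads of *Ccnd2*, and its part in the *Ccnd2* value was not tested.

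The remaining cyclins and kinases of the cycle gave no call between genotypes in either population. *Cdk4*, the second kinase of the D-type cyclins, had 60.8 and 55 CPM in Ctrl sPre-B cells and 68.2 and 74.1 CPM in cKO sPre-B cells (Log2FC 0.30, SE 0.13, adjusted *P* = 0.104). *Ccnd1* was at 8.93 to 9.66 CPM in the sPre-B libraries (Log2FC 0.03, adjusted *P* = 0.897). *Ccna1* and *Ccnb3* had too few reads to test, at most 0.0154 CPM.

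Of 7 CDK inhibitors, 1 was higher and 2 were lower in cKO sPre-B cells. In this and the next 3 lists the counts stand beside 19.8% of all tested genes higher and 14.9% lower, with no test of the difference. *Cdkn1a*, which encodes p21, had 4.54 and 3.5 CPM in Ctrl and 21.1 and 17.4 CPM in cKO sPre-B cells, called higher in the same cells as *Ccnd2* (Log2FC 2.26, SE 0.15, adjusted *P* = 4.07e-05). *Cdkn1b*, for p27, fell from 243.4 and 235 CPM to 181.1 and 178.1 CPM (Log2FC -0.41, SE 0.08, adjusted *P* = 0.00585). *Cdkn2d*, for p19, an inhibitor of CDK4 and CDK6, fell from 55.2 and 47.3 CPM to 35.7 and 40.9 CPM (Log2FC -0.42, SE 0.11, adjusted *P* = 0.0163). In early LPre-B cells 0 inhibitors were higher and 4 (57.1%) lower, *Cdkn1b* and *Cdkn2d* among them, beside 14.5% and 16.9% of all tested genes. *Cdkn2c*, the other INK4 gene with appreciable reads, was at 9.42 to 19.6 CPM in sPre-B cells and was not called (Log2FC 0.41, adjusted *P* = 0.232).

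Among 7 genes that set CDK phosphorylation or bind CDKs as CKS subunits, 3 were higher and 1 lower in cKO sPre-B cells. *Cdc25b*, a phosphatase that activates CDKs, fell from 268 and 240.4 CPM to 84 and 110.2 CPM (Log2FC -1.39, SE 0.14, adjusted *P* = 0.000238). Its relatives *Cdc25a* (Log2FC 0.52, SE 0.11, adjusted *P* = 0.00585) and *Cdc25c* (Log2FC 1.16, SE 0.26, adjusted *P* = 0.00875) rose, as did *Wee1* (Log2FC 0.83, SE 0.19, adjusted *P* = 0.0106), whose product holds CDK1 inactive. The Ctrl sPre-B libraries lay apart here too, at 7.03 and 3.65 CPM for *Cdc25c* and 22.4 and 14.4 CPM for *Wee1*. Both cKO libraries were above both of them, at 10.8 and 13.2 CPM and at 29 and 36.3 CPM. *Cdc25b* was also the 1 gene of this list called lower in early LPre-B cells (Log2FC -1.67, SE 0.15, adjusted *P* = 0.000125).

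Of 7 genes for cyclin degradation, 3 were higher and 1 lower in cKO sPre-B cells. *Fbxo5*, which encodes the inhibitor EMI1 of the anaphase-promoting complex, went from 26.3 and 14.9 CPM to 40.3 and 50.5 CPM (Log2FC 1.14, SE 0.23, adjusted *P* = 0.00543). *Fzr1*, for the activator CDH1 of that complex, was higher in cKO sPre-B cells (Log2FC 0.29, SE 0.08, adjusted *P* = 0.0229) and lower in cKO early LPre-B cells (Log2FC -0.28, SE 0.08, adjusted *P* = 0.0285). *Fbxw7*, part of the ligase that removes cyclin E, was lower in both (Log2FC -0.42 and -0.51, adjusted *P* = 0.0105 and 0.00541). *Cdc20*, *Ube2c* and *Ube2s*, which act in mitosis, were not called in sPre-B cells. In early LPre-B cells 0 genes of this list were higher and 4 (57.1%) lower, *Cdc20* among them (Log2FC -0.76, SE 0.20, adjusted *P* = 0.0188), beside 14.5% and 16.9% of all tested genes.

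Of 15 genes for the CDK-activating kinase and the CDKs and cyclins of transcription, 3 (20%) were higher and 1 (6.67%) lower in cKO sPre-B cells, a share of higher genes at the background, with a median Log2FC of -0.09. *Ccnl1*, a cyclin linked to splicing, was the largest of them, from 126.2 and 139.8 CPM to 273.6 and 289.2 CPM (Log2FC 1.08, SE 0.10, adjusted *P* = 0.000165), and rose in early LPre-B cells too (Log2FC 1.10, SE 0.10, adjusted *P* = 0.000179). *Cdk7* (Log2FC 0.30, adjusted *P* = 0.0196) and *Mnat1* (Log2FC 0.44, adjusted *P* = 0.0153), 2 of the 3 subunits of the CDK-activating kinase, were higher as well.

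The phase lists of Seurat, without the members, gave the wider picture. Of 42 S-phase genes, 22 were higher and 0 lower in cKO sPre-B cells (median Log2FC 0.51), and of 52 G2/M genes 16 were higher and 1 lower (median 0.46). Over all tested genes 19.8% were higher and 14.9% lower, with a median of 0.01. *Cenpu* (Log2FC 1.26, SE 0.11), *Wdr76* (0.84, SE 0.12) and *Mcm7* (0.91, SE 0.14), a subunit of the replicative helicase, had the smallest adjusted *P* values of the S-phase list, and the mitotic checkpoint kinase gene *Bub1* (1.38, SE 0.20), *Ndc80* (1.13, SE 0.18), for a kinetochore protein, and *Psrc1* (1.44, SE 0.24) those of the G2/M list, from 9.09e-05 to 0.00229 (edgeR). The G2/M count turned on single sPre-B libraries of both genotypes. It was 37 of 52 without Ctrl replicate 1, 10 without Ctrl replicate 2 and 6 without cKO replicate 2, while the S-phase count was 26, 17 and 17 of 42. Summed over the list, the G2/M level was 4900.8 CPM in Ctrl sPre-B replicate 1, 3289.3 in replicate 2, the male library, and 4805.9 and 5541.5 in cKO. The S-phase level was 1452 and 1076.8 CPM in Ctrl and 1615.8 and 1818 CPM in cKO, with no overlap.

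In early LPre-B cells, 2 of 42 S-phase genes were higher and 3 lower (median Log2FC -0.16), and 1 of 52 G2/M genes was higher and 10 lower (median -0.42), beside -0.06 over all genes, of which 14.5% were called higher and 16.9% lower. Leaving out 1 library at a time gave 0 to 9 S-phase and 4 to 25 G2/M genes lower, the highest counts without either Ctrl sPre-B library, and the fit of the 4 early LPre-B libraries alone gave 9 and 26. In the interaction term all 52 G2/M genes and 40 of 42 S-phase genes had a value above 0, where 10082 of 17700 tested genes did. The term was called in 2 G2/M and 4 S-phase genes, beside 2.64% of all tested genes. These counts are not firm: leaving out 1 library at a time gave 0 to 38 and 0 to 19, the highest without Ctrl sPre-B replicate 1, and DESeq2 called 30 and 17.

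**Figure D5:**
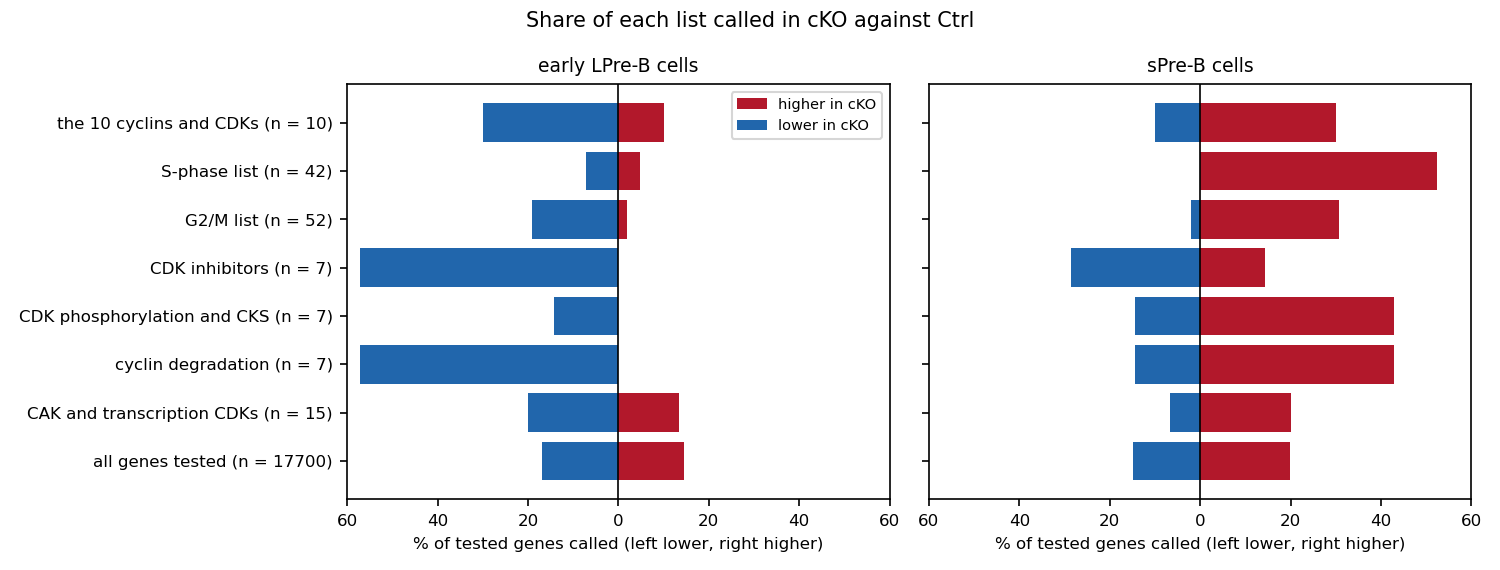
Percent of the tested genes of each list called higher (red, right) or lower (blue, left) in cKO against Ctrl, in early LPre-B cells and sPre-B cells, with the number of genes tested beside each list. In sPre-B cells 22 of 42 S-phase genes and 16 of 52 G2/M genes were higher, and 19.8% of all tested genes.

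The sorted cells were checked by marker lists. Of 6 B-lineage markers, *Cd79a* and *Ebf1* (Log2FC -0.80, adjusted *P* = 0.00265) were lower in cKO sPre-B cells and 4 were not called, and the list summed to 5503.1 to 6228 CPM in Ctrl and 3940.3 to 4386.9 CPM in cKO sPre-B cells. *Il2ra* (CD25) and *Cd2* separated the populations and were not called between genotypes in sPre-B cells. *Cd79a*, the locus that carries Cre in cKO, was 4.22-fold lower in cKO sPre-B cells. Of 4 early LPre-B markers, *Igll1* (Log2FC 0.66, adjusted *P* = 0.021) and *Vpreb1* (Log2FC 0.88, adjusted *P* = 0.0131) were higher in cKO sPre-B cells, and the list summed to 59.9 to 73.5 CPM in Ctrl sPre-B, 67.6 to 83.4 CPM in cKO sPre-B and 467.2 to 779.9 CPM in early LPre-B cells. *Igll1* was at 8.77 and 10.2 CPM in cKO sPre-B cells, against 212.9 to 337.8 CPM in early LPre-B cells. *Spn* was at 48.9 and 61 CPM in cKO sPre-B cells, against 119.9 to 198 CPM in early LPre-B cells.

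Of 4 mature B cell markers 2 also moved with the sPre-B result, *Fcer2a* (Log2FC 3.32, adjusted *P* = 0.000735) and *Cr2* (Log2FC 1.21, adjusted *P* = 0.00189), with list sums of 313.6 to 340.2 CPM in Ctrl and 297.1 to 483.1 CPM in cKO. Of the 4 sPre-B markers *Rag1* was lower (Log2FC -1.06, adjusted *P* = 0.00914), with sums of 3748 to 4317.3 CPM in Ctrl and 2258.2 to 2417.2 CPM in cKO. T and NK cell markers summed to at most 1.58 CPM in any library. Myeloid markers summed to 275.7 to 322.1 CPM in Ctrl and 201 to 217.6 CPM in cKO sPre-B cells (1 of 6 lower, *Itgam*), and erythroid markers to 17.6 to 20.6 and 6.12 to 10.3 CPM (1 of 4 lower, *Hbb-bs*). The sort took sIgM- cells. *Fcer2a* was at 6.03 and 5.33 CPM in Ctrl and at 83.8 and 29.9 CPM in cKO sPre-B cells. *Cr2* was at 9.58 and 9.33 CPM in Ctrl and at 25.9 and 18 CPM in cKO sPre-B cells. The part of the early LPre-B and mature B cell markers in the cyclin values was not tested.

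Markers moved with genotype in early LPre-B cells as well. Of 4 sPre-B markers 3 were lower in cKO there (median Log2FC -1.03), among them *Rag1*, a gene of the V(D)J recombinase, at 408.8 and 384.8 CPM in Ctrl and 44 and 74.9 CPM in cKO. Of 4 early LPre-B markers 2 were lower, *Spn* (CD43) and *Kit*, the latter at 18.7 and 15.1 CPM in Ctrl and 3.84 and 2.08 CPM in cKO, and the list summed to 565.9 to 779.9 CPM in Ctrl and 467.2 to 487 CPM in cKO. In the B-lineage list 3 of 6 were lower, with sums of 2461.5 to 2504 CPM in Ctrl and 1712.1 to 1737 CPM in cKO. Myeloid markers were lower for 2 of 6, with sums of 104.6 to 126 and 45.2 to 50.7 CPM, erythroid markers for 1 of 4, and 1 of 4 mature B cell markers was higher. Their part in the early LPre-B cyclin values was not tested.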

How the data were processed

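RNA was measured in both sorted populations, in 4 groups of 2 libraries. Per the labels and the methods of the study, the authors depleted rRNA, made directional libraries, trimmed reads with Trim Galore, aligned them with HISAT2 to mm10 without strand and counted them per Entrez gene with featureCounts. They deposited raw, unnormalized counts, 68516857 to 160426338 per library. No version is given in the sources used here.

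Names came from RefSeq (25275 of 27179 genes matched). All genes were fitted with edgeR 4.0.16 (R 4.3.3): filterByExpr, TMM, 1 mean per group over all 8 libraries, quasi-likelihood *F* test, adjusted *P* under 0.05. A 95% interval uses the *t* distribution of the fit with 8.6 degrees of freedom. CPM per kilobase uses the union of exons of GENCODE mouse transcripts linked to RefSeq. The test was checked on simulated counts. Libraries of a group differed beyond counting noise, so none was 1 library deposited again. All 8 value columns belong to a sample.

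The 10 members and the lists were chosen with earlier results of these data known. In other lists, up to 3 called genes with the smallest adjusted *P* in sPre-B cells were to be named, and for each member the 2 genes of highest Pearson's r. Other genes with a value, such as *Wee1*, *Cdkn2c*, *Cdk4* and genes overlapping a member, were chosen after their values were seen. Promoters came from RefSeq (GRCm38.p6). Alternatives were other scaling factors, no immunoglobulin genes, no filter, edgeR's likelihood-ratio test, DESeq2 1.42.0, only the groups compared, a replicate block, each library left out, and both Ctrl replicate 2 libraries left out. A block within genotype was added after seeing the data.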

Additional observations from a re-analysis of the deposited data

Results flagged for a closer look

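The cKO difference itself differed between sPre- and early LPre-B cells, by the interaction term of edgeR's fit, for 1 of the 10 members. For *Ccnd2* it was 2.76 larger in sPre-B cells (log2 scale, SE 0.33, adjusted *P* = 0.00612). From 158.4 and 226.7 CPM in cKO sPre-B cells against 12.1 and 18.1 in Ctrl, both cKO libraries were higher there, as both were in early LPre-B cells.

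The same term passed for several genes named beside the members. Among regulators of the cycle it was 1.99 for *Cdkn1a* (adjusted *P* = 0.00384) and 0.58 for *Fzr1* (0.0319), whose cKO difference was negative in early LPre-B cells and positive in sPre-B cells. Among S-phase and G2/M genes it was 1.20 for *Mcm7* (0.0167), 0.74 for *Wdr76* (0.049), 1.26 for *Bub1* (0.0415) and 1.63 for *Psrc1* (0.0341). These 4 calls were lost when either cKO early LPre-B library, or both Ctrl replicate 2 libraries, were left out. Those of *Bub1* and *Psrc1* were also lost without either Ctrl early LPre-B or either cKO sPre-B library. Those of *Mcm7* and *Wdr76* were lost without Ctrl sPre-B replicate 2, where *Bub1* and *Psrc1* were not both called. *Mcm7* and *Wdr76* were also not both called when either Ctrl early LPre-B library or cKO sPre-B replicate 2 was left out. Among markers it was 1.41 for *Vpreb1* (0.0346), 1.68 for *Rag1* (0.0315), 3.24 for *Fcer2a* (0.0269) and 0.90 for *Itgam* (0.0472). For these markers, *Cdkn1a* and *Fzr1*, whether the call held with a library left out is not given here. *Rag1* and *Itgam* were lower in cKO in both populations, and their positive term stands for a larger fall on the log2 scale in early LPre-B cells (Log2FC -2.74 against -1.06 for *Rag1* and -1.36 against -0.46 for *Itgam*), there from 408.8 and 384.8 to 44 and 74.9 CPM for *Rag1* and from 87.1 and 97.4 to 30.4 and 41.2 CPM for *Itgam*.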

How the results depend on the processing

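Over 18 alternatives and 870 values of single members, 792 kept direction and side of the threshold. In sPre-B cells *Ccnd2*, *Ccne1* and *Cdk2* were called in all 17 alternative fits, and *Ccne2* in 16. Leaving out 1 library at a time gave 3 to 6 members higher in cKO sPre-B cells (genes 2258 to 3381 higher and 1366 to 3256 lower), 0 or 1 higher and 0 to 6 lower in early LPre-B cells (genes 1634 to 2790 higher and 1289 to 2717 lower), and 1 to 6 higher in the interaction (genes 84 to 569 higher and 42 to 333 lower). Where an arm then had 1 library, it is assumed to vary like the other groups. Members called lower in cKO early LPre-B cells were 5 with no filter and 5 with DESeq2, and 2 were lower in cKO sPre-B cells with upper-quartile factors (*Cdk6* at -0.27, adjusted *P* = 0.0463, beside *Cdk2*). In the interaction, 467 genes were higher and 283 lower. No filter gave 1078 and 497 with 6 members higher, the likelihood-ratio test 1004 and 504 with 4, DESeq2 1045 and 725 with 6, and upper-quartile factors and leaving out 260 immunoglobulin genes 2 members each. Without both Ctrl replicate 2 libraries it gave 59 and 33 genes and 0 members, and 0 members were higher in early LPre-B cells. Signs turned only for values not called: without those libraries *Ccnb2* was at -0.13 and *Cdk1* at -0.01 in sPre-B cells and *Ccne1* at -0.06 in early LPre-B cells. Over single libraries left out, *Ccnb1* (0.00 with all libraries) ran from -0.42 to 0.48, *Ccnb2* from -0.13 to 0.66 and *Cdk1* from -0.01 to 0.97 in sPre-B cells, and *Ccnd3* from -0.35 to 0.09, *Ccne1* from -0.06 to 0.29 and *Ccne2* from -0.25 to 0.02 in early LPre-B cells. The causes were not tested. Upper-quartile factors moved the median of all genes between populations to 0.12 in both genotypes, from 0.02 and 0.05, and *Ccnd2* was then not called lower in cKO sPre-B cells (-0.54, adjusted *P* = 0.0763).

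Groups share replicate numbers 1 and 2. Same-numbered libraries deviated together within a genotype (r 0.395 in Ctrl and 0.254 in cKO over 17700 genes) and less between genotypes (0.155 in early LPre-B and 0.086 in sPre-B cells), and with 2 numbers no pairing was established. With the number as a replicate block, 3 members stayed called higher and 1 lower in cKO sPre-B cells and 2 were higher in the interaction, *Ccne1* at 1.08 (adjusted *P* = 0.0446) beside *Ccnd2*. It changed no other member's call. With a replicate block within genotype the interaction had 1360 genes higher, 782 lower and 5 members higher.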
